A study of Mus musculus with 9 samples.

Results

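The genes that encode fibroblast growth factor (FGF) ligands and their receptors were followed across WT, CdxKO and T/BraKO caudal epiblast-like cells. The set holds 10 of the 24736 genes in the deposited table, chosen by gene symbol, with earlier results of these data known. It comprises 7 ligand genes (Fgf3, Fgf4, Fgf5, Fgf8, Fgf15, Fgf17 and Fgf18) and 3 receptor genes (Fgfr1, Fgfr2 and Fgfr3). Poly(A) RNA was sequenced from 9 cultures, with 3 biological replicates for each genotype. WT was the XY HM1 TetON embryonic stem cell line, which the study's methods name as the parent of all lines. CdxKO cells lack Cdx1, Cdx2 and Cdx4 (Cdx1/2/4-/-), and T/BraKO cells lack T, also called Brachyury (T/Bra-/-). All 9 cultures were kept in medium with 10 ng per ml bFGF and 5 uM LGK974, which blocks WNT secretion, and received the GSK3 inhibitor CHIR99021 for the last day. RNA was collected at 72 h (day 3). An exogenous FGF was thus present in every culture. The labels name no second line of either mutant genotype, so a difference between lines and an effect of the mutation cannot be told apart.

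Libraries held 25124344 to 34705361 expected counts, which are estimated read counts for each gene, and normalised counts are these divided by the size factor of the library. The caudal epiblast marker list was expressed in every group, with a summed level of 1103 to 1287 TPM in WT, 710 to 1163 in CdxKO and 887 to 1240 in T/BraKO. Of its 8 genes, 5 were called lower in CdxKO against WT (DESeq2), namely the 3 targeted Cdx genes and the WNT ligand genes Wnt3a and Wnt8a. In T/BraKO against WT, T and Wnt3a were called lower and Sp5, a WNT target, higher. TPM is a level scaled for transcript length within a library. The targeted genes were lower in their own mutant. T averaged 431 TPM ± 68.8 (SD, n = 3) in WT and 78.9 ± 18.8 in T/BraKO. Cdx2 averaged 141 TPM ± 58.8 (SD, n = 3) in WT and 34.5 ± 17.2 in CdxKO. The lines also differed at loci other than T and the Cdx genes. Hprt, a purine salvage enzyme, averaged 3938 normalised counts in T/BraKO and reached at most 28.1 in WT and CdxKO. The Y-linked gene Ddx3y had 0 counts in all CdxKO libraries and at least 1479 in each of the others. Whether all lines share the parent named in the methods, the source of these differences and their part in the results below were not tested.

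FGF ligands are secreted proteins that bind receptor tyrosine kinases on the cell surface, with heparan sulphate or Klotho proteins as cofactors. The bound receptor phosphorylates adaptor proteins and activates the RAS, RAF, MEK and ERK kinases, which induce ETS transcription factors and the Sprouty, Spred and dual-specificity phosphatase genes that dampen the pathway. In the posterior embryo, FGF signalling maintains the caudal progenitors of the trunk and is needed for cells to leave the primitive streak as mesoderm. Fgf8, Fgf17 and Fgf18 form 1 subfamily of related ligands, Fgf4 and Fgf5 belong to another, and Fgf15 is the mouse counterpart of the endocrine ligand FGF19.

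At the level of transcripts, Fgf8 was the most abundant ligand in WT and CdxKO and was lower in T/BraKO, whereas Fgf17 was higher in T/BraKO. Fgf4 was lower in both mutants than in WT, a difference that DESeq2 called with the replicate number as a term of the fit and not without it. The receptors were led by Fgfr1 in every library and differed little between genotypes. A gene is called here where its adjusted p was at most 0.05, and an increase or decrease is stated as a log2 fold change of counts. The plot of levels by library shows all 10 genes.

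**Figure D1:**
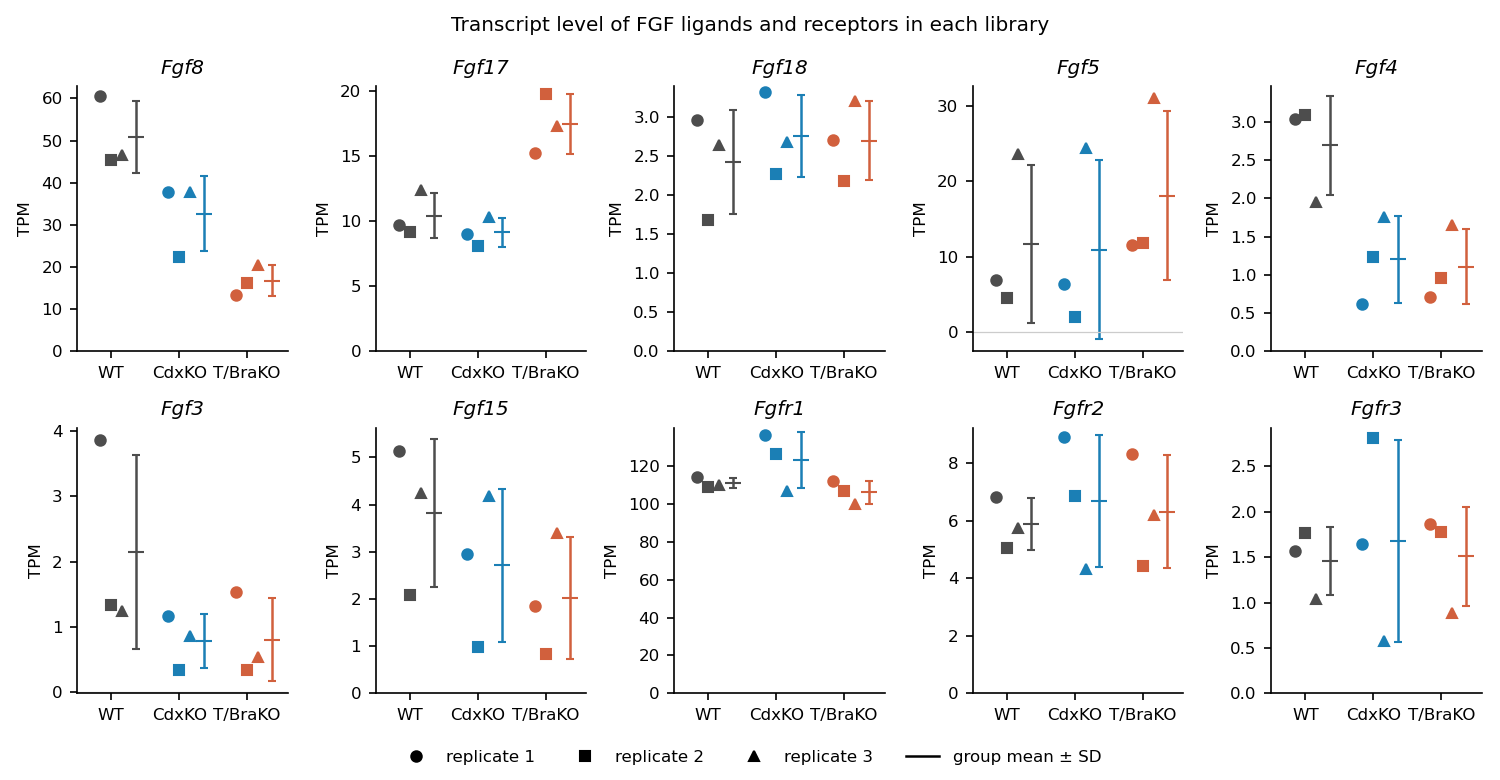
Level of each gene in TPM (y axis, linear, different range in each panel) in the 9 libraries, grouped by genotype (x axis), with symbols for replicate numbers and bars for the group mean ± SD (n = 3). Fgf8 is at 45.4 to 60.6 TPM in WT and 13.3 to 20.6 in T/BraKO, and Fgf17 at 9.14 to 12.4 TPM in WT and 15.2 to 19.8 in T/BraKO.

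Fgf8 encodes a ligand of the primitive streak and caudal epiblast (GRCm38, chr19:45736798-45742915, minus strand). Its level was 60.6, 45.4 and 46.5 TPM in WT replicates 1 to 3. It was 37.8, 22.4 and 37.7 TPM in CdxKO and 13.3, 16.3 and 20.6 TPM in T/BraKO. The 3 groups did not overlap, with WT highest, CdxKO between and T/BraKO lowest. In T/BraKO against WT, the log2 fold change of Fgf8 was -1.56 (SE 0.26, 95% interval -2.06 to -1.06), a level 2.95-fold lower, with an adjusted p of 5.01e-07 (DESeq2). It was called in each of the 18 fits that left out 1 library, without or with the replicate block, and with edgeR (adjusted p 0.0352). Background for this comparison is that 1.08% of the 18900 genes tested were called, or 9.68% with the replicate number as a term (replicate block). In CdxKO against WT, the log2 fold change was -0.62 (SE 0.25) and the adjusted p was 0.572, so Fgf8 was not called. With the replicate block it was -0.65 (SE 0.17, 95% interval -0.97 to -0.32) and was called by DESeq2 (adjusted p 0.00401), while edgeR with the block gave an adjusted p of 0.0668. This call was lost without WT replicate 1 (adjusted p 0.396), WT replicate 2 (0.246), CdxKO replicate 2 (0.181) or T/BraKO replicate 2 (0.163).

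Both mutants share the WT libraries as controls, so the mutants were also compared with each other. In CdxKO against T/BraKO, the log2 fold change of Fgf8 was 0.94 (SE 0.26, 95% interval 0.44 to 1.45), a level 1.92-fold higher in CdxKO, with an adjusted p of 0.01003 (DESeq2). In this comparison 3.48% of 16016 genes were called, or 14.6% with the block. The call held with the block (0.91, adjusted p 3.59e-06), whereas edgeR without the block gave an adjusted p of 0.123. Without the block it was lost when CdxKO replicate 1 (0.147), CdxKO replicate 3 (0.127) or T/BraKO replicate 1 (0.135) was left out.

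The summed level of 9 paraxial mesoderm markers, which include Msgn1 and Tbx6, moved with Fgf8 in T/BraKO. It was 99.7 to 167 TPM in WT, 59.0 to 183 in CdxKO and 29.9 to 51.6 in T/BraKO. Of these 9 genes, 4 were called lower in T/BraKO against WT, 4 higher in CdxKO against T/BraKO and 0 in CdxKO against WT (DESeq2). Of all genes, 1.08%, 3.48% and 0.693% were called, in that order. With the block, 5 of 6 with an adjusted p were lower, 6 of 8 were higher and 0 of 6 were called. The blocked shares of all genes were 9.68%, 14.6% and 5.31%. In CdxKO against WT, 0 genes of the list had an unadjusted p of at most 0.05. This covers the 9 genes without the block and the 6 with an adjusted p in the blocked fit. Msgn1 averaged 21.7 TPM in WT and 0.443 in T/BraKO. The part of these cells in the Fgf8 difference was not tested. In bulk RNA, fewer cells of a type and less RNA per cell cannot be told apart.

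Fgf17, the ligand of the Fgf8 subfamily on chromosome 14 (chr14:70636203-70642268, minus strand), moved the other way in T/BraKO. Its level was 9.70, 9.14 and 12.4 TPM in WT and 9.04, 8.11 and 10.3 TPM in CdxKO. It was 15.2, 19.8 and 17.3 TPM in T/BraKO, where all 3 libraries lay above the 6 others. In T/BraKO against WT, the log2 fold change of Fgf17 was 0.78 (SE 0.19, 95% interval 0.41 to 1.15), a level 1.71-fold higher, with an adjusted p of 0.00627 (DESeq2). The replicate block gave 0.79 (adjusted p 4.07e-05) and kept the call in all 9 fits that left out 1 library. Without the block the call was lost without WT replicate 1 (adjusted p 0.141), WT replicate 2 (0.113), T/BraKO replicate 2 (0.107) or T/BraKO replicate 3 (0.0752), and edgeR gave an adjusted p of 0.169.

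The difference in Fgf17 between the mutants was -0.96 on the log2 scale (SE 0.19, 95% interval -1.33 to -0.59) for CdxKO against T/BraKO, with an adjusted p of 4.58e-05 (DESeq2). It was called in all 18 fits that left out 1 library and by edgeR (adjusted p 0.0332). CdxKO against WT gave a log2 fold change of -0.18 (95% interval -0.56 to 0.20) with an adjusted p of 1.00 (DESeq2), and the libraries of these groups overlapped. In that comparison 0.693% of 16737 genes were called, or 5.31% with the block. Fgf8 and Fgf17 thus made up the 2 members called in T/BraKO against WT and the 2 called in CdxKO against T/BraKO, 1 in each direction, while 0 of 10 members were called in CdxKO against WT. Of those 10, 2 had an unadjusted p of at most 0.05 (Fgf4 and Fgf8), and edgeR also called 0.

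Fgf18, the remaining ligand of this subfamily (chr11:33117430-33147400, minus strand), showed no such pattern. It was at 2.96, 1.68 and 2.65 TPM in WT, 3.32, 2.28 and 2.68 in CdxKO and 2.71, 2.19 and 3.21 in T/BraKO, and all groups overlapped. Its log2 fold change in T/BraKO against WT was 0.19 (95% interval -0.44 to 0.83), so a change of 1 log2 unit in either direction lay outside the interval.

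The order of the ligands within a library changed with genotype. Fgf8 had the highest TPM of the 7 ligands in all 3 WT and all 3 CdxKO libraries. Fgf17 was highest in T/BraKO replicates 1 and 2, and Fgf5 in T/BraKO replicate 3. The ratio of Fgf8 to Fgf17 TPM was 3.76 to 6.24 in WT, 2.76 to 4.19 in CdxKO and 0.825 to 1.19 in T/BraKO. The ranges of T/BraKO and of the other genotypes did not overlap. As a share of the summed TPM of 18 FGF ligand genes, Fgf8 took 63.8%, 65.6% and 48.7% in the WT libraries. The share was 59.5%, 57.2% and 44.3% in CdxKO and 27.0%, 30.5% and 25.5% in T/BraKO. The summed level of all 18 ligand genes was 86.6 TPM ± 15.0 (SD, n = 3) in WT, with 62.6 ± 23.0 in CdxKO and 61.2 ± 17.0 in T/BraKO, and with overlapping libraries. The 4 FGF homologous factors (Fgf11 to Fgf14), which are intracellular and not ligands, were left out of these sums.

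**Figure D2:**
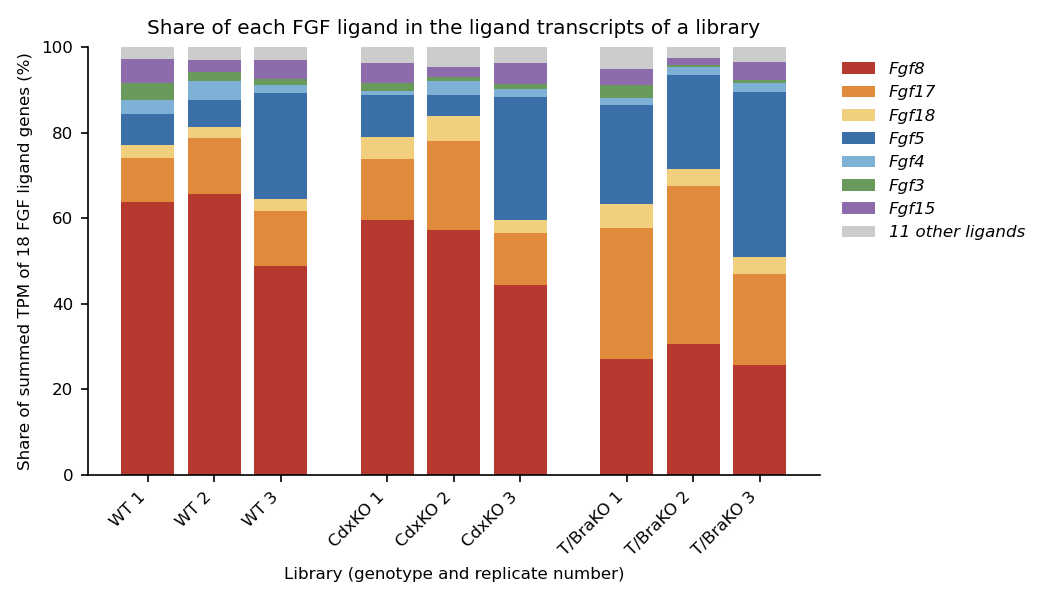
Share of each ligand gene (stacked, in percent of the summed TPM of 18 FGF ligand genes, y axis) in each library (x axis, genotype and replicate number). The Fgf8 share is 25.5% to 30.5% in T/BraKO and at least 44.3% in the other libraries, and the Fgf5 share is largest in replicate 3 of each genotype.

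Fgf5, a ligand of the post-implantation epiblast (chr5:98254184-98277030, plus strand), varied more within than between genotypes. It was at 6.90, 4.44 and 23.7 TPM in WT and 6.29, 1.98 and 24.4 TPM in CdxKO. In T/BraKO it was at 11.5, 11.8 and 31.1 TPM. Replicate 3 was the highest library of each genotype, and the groups overlapped. None of the comparisons called Fgf5 without the block, and CdxKO differed from T/BraKO by -0.76 on the log2 scale with a 95% interval of -2.76 to 1.24. With the block, this difference was -1.26 (SE 0.46, 95% interval -2.16 to -0.37) and was called (DESeq2, adjusted p 0.0408). Blocked fits called it without CdxKO replicate 2, CdxKO replicate 3 or T/BraKO replicate 3. The call was lost without any of the 6 other libraries, namely WT replicates 1 to 3, CdxKO replicate 1 and T/BraKO replicates 1 and 2, with adjusted p of 0.0880 to 0.164. The blocked log2 fold change in T/BraKO against WT was 0.93 (95% interval 0.04 to 1.83) with an adjusted p of 0.205 (DESeq2), and without CdxKO replicate 2 it was 0.85 and called (adjusted p 1.18e-05).

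Fgf3, Fgf4 and Fgf15 lie next to each other on chromosome 7, on the plus strand, within 62.9 kb (chr7:144838083-144900953). Fgf4, a ligand of the early epiblast and primitive streak, was at 3.03, 3.09 and 1.95 TPM in WT. It was at 0.620, 1.23 and 1.76 TPM in CdxKO and 0.710, 0.960 and 1.65 in T/BraKO. All 6 mutant libraries lay below all 3 WT libraries, and the mutants overlapped each other. The log2 fold change of Fgf4 was -1.14 (SE 0.44) in CdxKO against WT and -1.24 (SE 0.44) in T/BraKO against WT, with adjusted p of 0.463 and 0.2500 (DESeq2). With the block, the values were -1.27 (SE 0.36, 95% interval -1.97 to -0.57) and -1.36 (SE 0.36, 95% interval -2.06 to -0.65), and both were called (DESeq2, adjusted p 0.0123 and 0.00371). With edgeR and the block, Fgf4 was called in T/BraKO (adjusted p 0.0420) and not in CdxKO (adjusted p 0.0827). CdxKO and T/BraKO differed by 0.10 on the log2 scale (95% interval -0.77 to 0.97).

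The calls of Fgf4 rested on several libraries. In CdxKO against WT the blocked call was lost without WT replicate 1 (adjusted p 0.528), WT replicate 2 (0.308), CdxKO replicate 1 (0.375) or CdxKO replicate 2 (0.0670) in DESeq2. The call in T/BraKO against WT was lost without WT replicate 1 (0.297), WT replicate 2 (0.153), T/BraKO replicate 1 (0.112) or T/BraKO replicate 2 (0.0885). Without T/BraKO replicate 3 and without the block, Fgf4 was called in that comparison (adjusted p 0.0373). The smallest mutant differences were those of replicate 3, where WT was at 1.95 TPM.

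Fgf3, a ligand of the posterior embryo, was at 3.86, 1.34 and 1.25 TPM in WT, 1.16, 0.340 and 0.860 in CdxKO and 1.53, 0.340 and 0.540 in T/BraKO. WT replicate 1 stood above the other 8 libraries, and replicate 1 was the highest of each genotype. The CdxKO libraries lay below the WT libraries, and T/BraKO overlapped both. The lowest library held 5.36 normalised counts, close to the floor of 3 counts. Its log2 fold change was -1.45 (SE 0.74) in CdxKO against WT and -1.39 (SE 0.74) in T/BraKO against WT, and neither was called by DESeq2. With the block the values were -1.39 (adjusted p 0.134) and -1.46, the latter with no adjusted p because DESeq2 filtered Fgf3 out on its mean count. With edgeR and the block, Fgf3 was called lower in both comparisons (adjusted p 0.0481 and 0.0268).

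Fgf15 was at 5.13, 2.09 and 4.25 TPM in WT, 2.96, 0.980 and 4.19 in CdxKO and 1.85, 0.830 and 3.40 in T/BraKO. Replicate 2 was the lowest library of each genotype, and the groups overlapped. Within each replicate number, the order was WT, then CdxKO, then T/BraKO. In T/BraKO against WT, the log2 fold change of Fgf15 was -0.87 (SE 0.61) and was not called, whereas the block gave -0.98 (SE 0.31, 95% interval -1.59 to -0.37) and called it (DESeq2, adjusted p 0.0240). With edgeR and the block the adjusted p was 0.0378. The blocked DESeq2 call was lost without WT replicate 1 or 2, CdxKO replicate 3 or any T/BraKO library, with adjusted p of 0.0538 to 0.333. In CdxKO against WT the blocked value was -0.61 with an adjusted p of 0.318 (DESeq2).

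The 250 bases before the annotated start were taken for the ligands of this group and Fgf5, whose levels moved between replicates or genotypes, from RefSeq on GRCm38.p6. Of the 10 members, 6 had such a promoter window (Fgf3, Fgf4, Fgf5, Fgf18, Fgfr2 and Fgfr3). Fgf8, Fgf17, Fgf15 and Fgfr1 had none in the table. The RefSeq starts of Fgf3, Fgf4, Fgfr2 and Fgfr3 lie inside the GENCODE bounds of these genes, so the starts differ between the annotations. The letters AGGTGT (the T-box core), TTTATG (CDX), CTTTGA (TCF/LEF) and ATTGTT (SOX) were searched on both strands, and matches are in capitals. The searched windows held these 250 bases and the 50 bases after the start. Of all such windows, 13.7%, 11.9%, 16.0% and 10.7% held the letters, in that order. The sequences run 5′ to 3′ on the plus strand, at chr7:144838362-144838611 for Fgf3, chr7:144861136-144861385 for Fgf4 and chr5:98253934-98254183 for Fgf5.
Fgf3: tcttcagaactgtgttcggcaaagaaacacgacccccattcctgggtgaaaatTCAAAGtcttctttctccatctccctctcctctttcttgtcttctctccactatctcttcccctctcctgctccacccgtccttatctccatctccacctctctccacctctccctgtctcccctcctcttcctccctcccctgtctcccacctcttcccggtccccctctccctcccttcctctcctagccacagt
Fgf4: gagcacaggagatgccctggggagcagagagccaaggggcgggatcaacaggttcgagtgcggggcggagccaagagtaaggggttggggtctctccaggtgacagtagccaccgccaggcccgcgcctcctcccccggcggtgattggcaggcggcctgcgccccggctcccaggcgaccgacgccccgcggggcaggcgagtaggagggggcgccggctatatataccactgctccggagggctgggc
Fgf5: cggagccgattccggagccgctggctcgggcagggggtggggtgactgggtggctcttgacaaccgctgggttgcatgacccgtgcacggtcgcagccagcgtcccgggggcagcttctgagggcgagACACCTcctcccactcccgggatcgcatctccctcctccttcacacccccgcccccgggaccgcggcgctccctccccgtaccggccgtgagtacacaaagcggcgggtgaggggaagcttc

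The Fgf3 stretch held 1 TCF/LEF match, on the minus strand and starting 197 bases before the start, and Fgf5 held 1 T-box core, on the minus strand and starting 122 bases before it. Fgf4 and Fgf18 held none of the 4 in their windows. Fgfr2 had 1 CDX match 159 bases before its start, and Fgfr3 had 1 T-box core 239 bases before the start of 1 of its 2 windows. These are matches of letters and were not tested against binding.

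Fgfr1, the main FGF receptor of the epiblast and early mesoderm (chr8:25513654-25575718, plus strand), was far above the other receptors. It was at 114, 109 and 110 TPM in WT, 136, 126 and 107 in CdxKO and 112, 107 and 99.8 in T/BraKO. CdxKO replicates 1 and 2 were the highest of all libraries, while CdxKO replicate 3 lay within the range of the others. Fgfr1 took 91.5% to 95.2% of the summed TPM of Fgfr1 to Fgfr4 in every library. In CdxKO against T/BraKO, its log2 fold change was 0.18 (SE 0.10, 95% interval -0.02 to 0.38) and was not called (DESeq2, adjusted p 0.555). With the block it was 0.18 (SE 0.06, 95% interval 0.06 to 0.30) and called (adjusted p 0.0351), a level 1.13-fold higher in CdxKO, while edgeR with the block gave an adjusted p of 0.0514. The blocked DESeq2 call was kept only without WT replicate 3 or CdxKO replicate 3. It was lost without WT replicate 1 (0.0655) or 2 (0.0603), CdxKO replicate 1 (0.306) or 2 (0.235), or T/BraKO replicate 1 (0.195), 2 (0.0850) or 3 (0.163). In CdxKO against WT the blocked value was 0.15 (adjusted p 0.190), which became 0.22 and was called without WT replicate 3 (adjusted p 0.0390) or CdxKO replicate 3 (0.0172). T/BraKO differed from WT by -0.03 on the log2 scale without the block (95% interval -0.23 to 0.17).

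Fgfr2, whose splice forms bind different ligands in epithelium and mesenchyme, was at 6.83, 5.06 and 5.73 TPM in WT, 8.89, 6.86 and 4.32 in CdxKO and 8.32, 4.41 and 6.21 in T/BraKO. Fgfr3 (chr5:33721674-33737068, plus strand) was at 1.57, 1.77 and 1.04 TPM in WT, 1.65, 2.81 and 0.580 in CdxKO and 1.87, 1.78 and 0.880 in T/BraKO. In GENCODE M21, the annotated Fgfr2 locus overlaps 36 genes on its own strand and 33 on the other. The counts were made on RefSeq genes, and the effect of such overlaps on them was not tested. All genotypes overlapped for both receptors, and neither was called in any comparison without or with the block. The intervals set the precision. For T/BraKO against WT, the 95% interval of the log2 fold change was -0.46 to 0.71 for Fgfr2 and -0.95 to 1.04 for Fgfr3 without the block, and -0.24 to 0.44 and -0.59 to 0.58 with it.

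**Figure D3:**
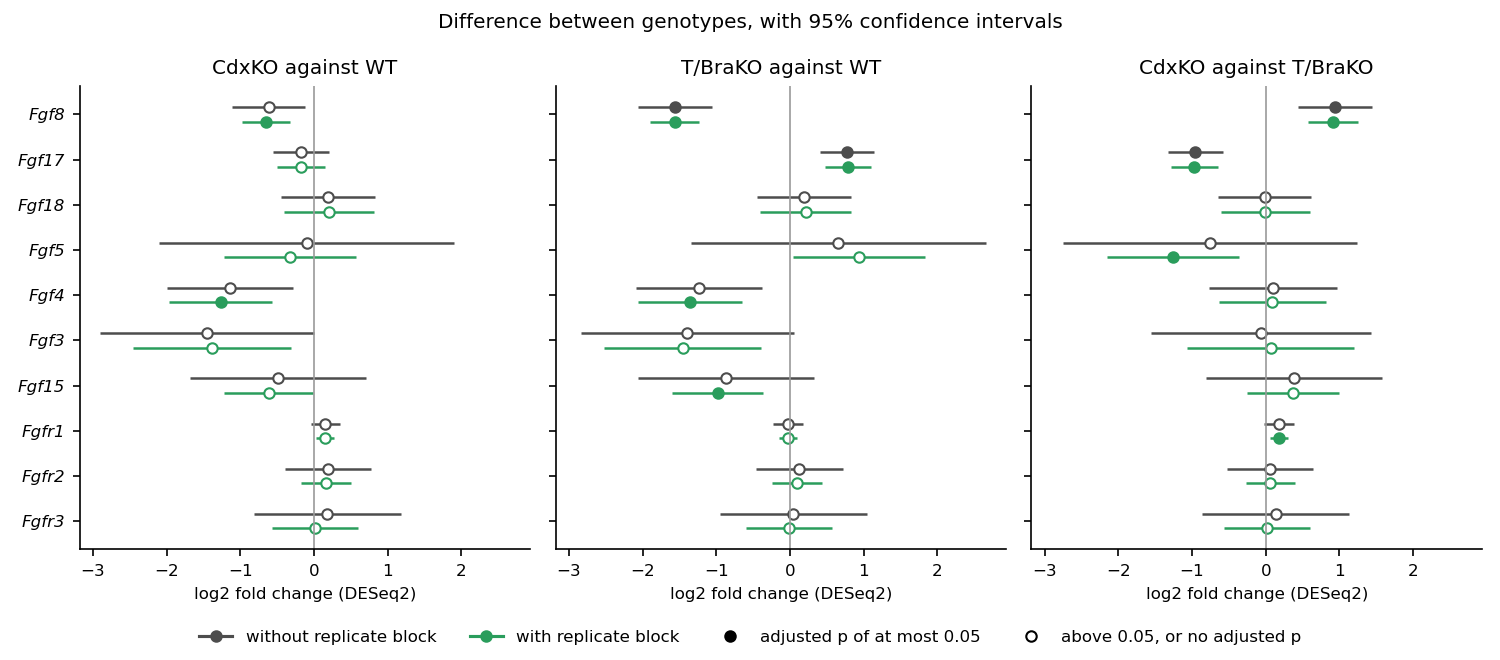
DESeq2 log2 fold changes (x axis) of the 10 members (y axis) in the 3 comparisons, without (grey) and with (green) the replicate block, with 95% confidence intervals (filled points have an adjusted p of at most 0.05). Fgf8 and Fgf17 are the members filled in both fits, in T/BraKO against WT and in CdxKO against T/BraKO, and the intervals of Fgf3, Fgf5, Fgf15 and Fgfr3 narrow with the block.

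Over the 10 members, the replicate block raised the calls from 0 to 2 in CdxKO against WT, both lower. It raised them from 2 to 4 in T/BraKO against WT, where 9 members had an adjusted p and 3 of the 4 were lower, and from 2 to 4 in CdxKO against T/BraKO, with 2 in each direction. The share of all genes called rose as well, to the percentages given above for the block. The median log2 fold change of the members was -0.14, 0.01 and 0.08 in the 3 comparisons in that order without the block. Over all genes tested, the medians were 0.00, 0.00 and -0.01.

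The replicate number accounted for a different part of the spread of each member. It held 91.3% of the within-genotype sum of squares of log2 normalised counts for Fgf15, 88.5% for Fgf3, 87.9% for Fgf5 and 82.5% for Fgf18. These ligands tracked the number as closely as most genes did, the median over 12316 genes being 81.2%. The share was 78.8% for Fgfr3, 61.0% for Fgfr2 and 59.0% for Fgfr1. It was lowest for Fgf17 (47.1%), Fgf8 (40.2%) and Fgf4 (35.8%). With so few libraries, a gene with no replicate effect would also show a sizeable share, and this baseline was not estimated. The highest library was replicate 1 of each genotype for Fgf3, Fgfr1 and Fgfr2 and replicate 3 for Fgf5, and the lowest was replicate 2 for Fgf15 and Fgf18 and replicate 3 for Fgfr3.

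**Figure D4:**
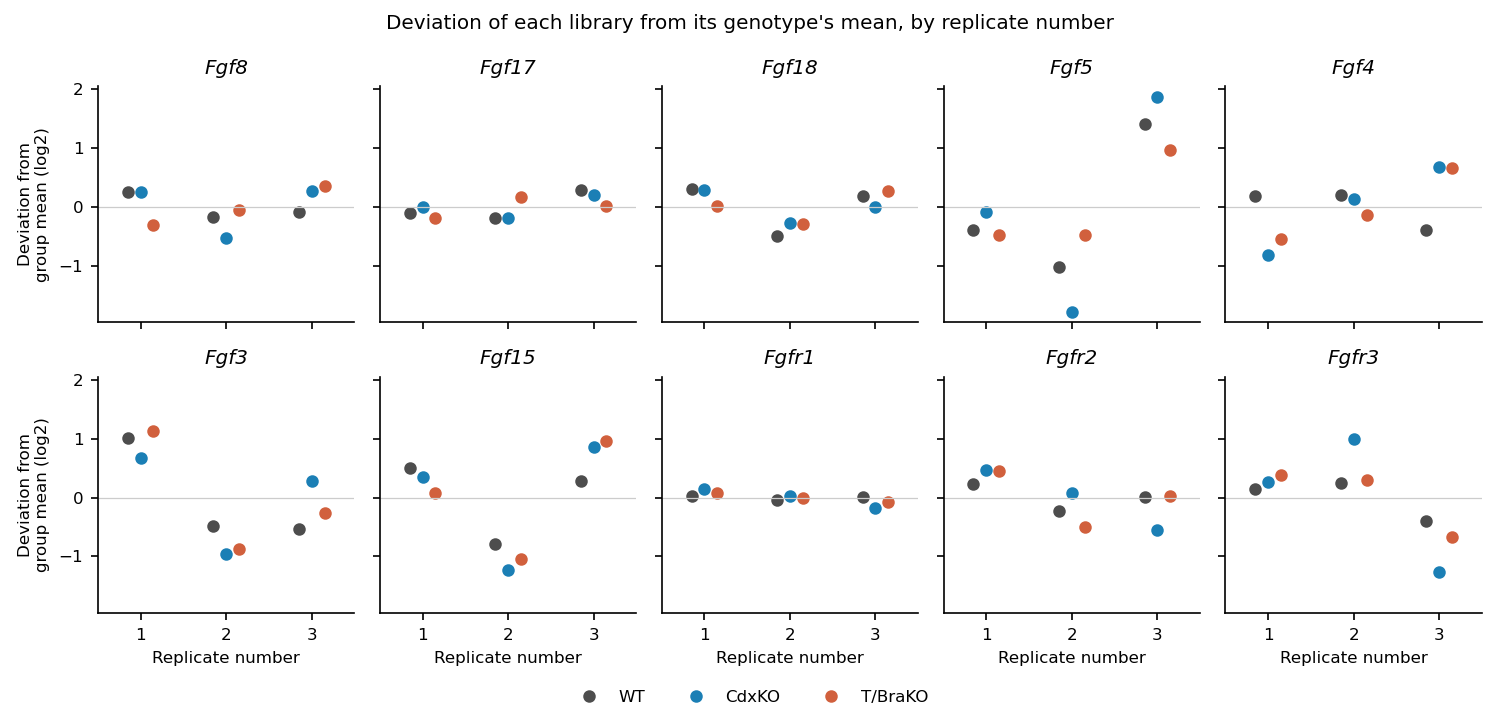
Deviation of each library from the mean of its genotype, as log2(normalised count + 1) (y axis), by replicate number (x axis), with 1 point for each genotype. Fgf5 is highest in replicate 3 of each genotype and Fgf15 is lowest in replicate 2 of each, whereas the points of Fgf8 and Fgf4 differ between genotypes at the same number.

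Genes with the most similar pattern to a called member were listed by Pearson's r of log2 normalised counts over the 9 libraries, as a description. For Fgf8 these were Aftph (0.947), Dlc1 (0.940) and Adra2b (0.937), and for Fgf17 Commd8 (0.953), Eif1ax (0.953) and Usp15 (0.948). The closest genes to Fgf5 were Atf1 (0.985), Hnrnpu (0.982) and Zfp747 (0.980). Fgf15 was closest to Rnf223 (0.965), Setdb1 (0.961) and Spred2 (0.947), the last a gene of the pathway lists. Fgf4 had lower values, with Cfap20 (0.887), Tmem181b-ps (0.886) and Kif27 (0.877) nearest, and Fgfr1 was closest to Yipf2 (0.951), Ginm1 (0.926) and Kctd10 (0.926). The libraries share genotype and replicate number, so these values are not independent of either.

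Other genes of the FGF pathway were taken from 4 lists with 56 genes, of which 55 were in the table and 54 had counts. Without the block, 0 of 53 tested genes were called in CdxKO against WT, 0 of 54 in T/BraKO against WT and 1 of 51 in CdxKO against T/BraKO (DESeq2). Of all genes tested, 0.693%, 1.08% and 3.48% were called. At an unadjusted p of at most 0.05 there were 2, 4 and 4 pathway genes. Over all genes there were 849 of 16737, 969 of 18900 and 1757 of 16016. The median log2 fold changes of the tested pathway genes were 0.07, 0.03 and -0.01. With the block, 2 of 44 (both higher), 7 of 40 (4 higher and 3 lower) and 6 of 45 (5 higher and 1 lower) were called. These were 4.55%, 17.5% and 13.3% of the pathway genes tested, against 5.31%, 9.68% and 14.6% of all genes.

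Of the 15 other FGF family genes, 0 were called by DESeq2 in any comparison, without or with the block. In CdxKO against WT, T/BraKO against WT and CdxKO against T/BraKO, 13, 14 and 11 of them had an adjusted p without the block. With the block 7, 4 and 7 had one, and the others could not be called. At an unadjusted p of at most 0.05 there were 0 in CdxKO against WT and 1 in each of the others, in both fits. Fgf13, a homologous factor, was the highest of them at 20.7 TPM ± 2.68 (SD, n = 3) in WT, with 19.2 ± 1.16 in CdxKO and 21.3 ± 0.758 in T/BraKO. Fgf6 was listed at 0 in all libraries. None of the 11 ligands among them was above 1.12 TPM in a library, so the 7 members held most of the ligand transcripts.

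Among 9 other receptors and co-receptors, Fgfbp1, a carrier that releases FGF from the matrix, was at 35.5, 128 and 41.5 TPM in WT and 77.7, 307 and 62.0 in T/BraKO. It was higher in T/BraKO at each replicate number, with replicate 2 the highest of each genotype. CdxKO, at 79.6, 170 and 59.5 TPM, also lay above WT at each replicate number. With the block its log2 fold change in T/BraKO against WT was 1.03 (DESeq2, adjusted p 8.77e-04). In CdxKO against WT it was 0.71 and not called (adjusted p 0.0666), and the mutants differed by -0.32 (95% interval -0.80 to 0.16). Flrt2, a membrane protein that modulates FGF signalling, was higher in CdxKO than in T/BraKO by 0.62 with the block (DESeq2, adjusted p 0.0186).

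Among 19 signal transduction genes, Gab1, a docking protein downstream of the receptor, was at 63.4, 71.5 and 63.7 TPM in WT. It was at 81.5, 88.3 and 82.6 TPM in CdxKO and 47.4, 61.1 and 45.6 in T/BraKO. The 3 genotypes did not overlap, with CdxKO highest and T/BraKO lowest. Gab1 was the pathway gene called without the block, with a log2 fold change of 0.68 in CdxKO against T/BraKO (SE 0.12, DESeq2 adjusted p 2.24e-06). With the block it was called in all comparisons, by 0.35 in CdxKO against WT (DESeq2, adjusted p 2.15e-05) and by -0.34 in T/BraKO against WT (adjusted p 4.84e-05). Among the other calls with the block, Map2k1 (a MEK kinase) was higher in CdxKO than in each of the other genotypes and Shc1 (an adaptor protein) higher in CdxKO than in T/BraKO, all by 0.22 to 0.24.

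Of the 12 feedback and ETS genes in the table, 0 were called in any comparison without the block, where 0 had an unadjusted p of at most 0.05. With the block, 4 of the 12 (33.3%) were called in T/BraKO against WT, in both directions (DESeq2). Of all genes, 9.68% were called in that fit. Dusp4, a phosphatase that inactivates ERK, was at 163, 107 and 180 TPM in WT and 116, 69.0 and 145 in T/BraKO, lower at each replicate number (-0.45, adjusted p 2.53e-06). Etv4, an ETS factor induced by FGF, was at 84.9, 31.6 and 118 TPM in WT and 106, 52.3 and 159 in T/BraKO, higher at each replicate number (0.52, adjusted p 1.82e-09). Spred1 was higher by 0.24 (adjusted p 0.0455) and Spred2 lower by -0.23 (adjusted p 0.0177), both inhibitors of RAS signalling. In CdxKO against T/BraKO, Dusp4 was higher (0.55, adjusted p 4.91e-10) and Etv4 lower (-0.36, adjusted p 6.18e-05). These 2 were 16.7% of the 12, near the 14.6% of all genes called there. In CdxKO against WT 0 of the 12 were called. Spry2, Spry4, Dusp6 and Etv5 were not called in any of these fits.

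**Figure D5:**
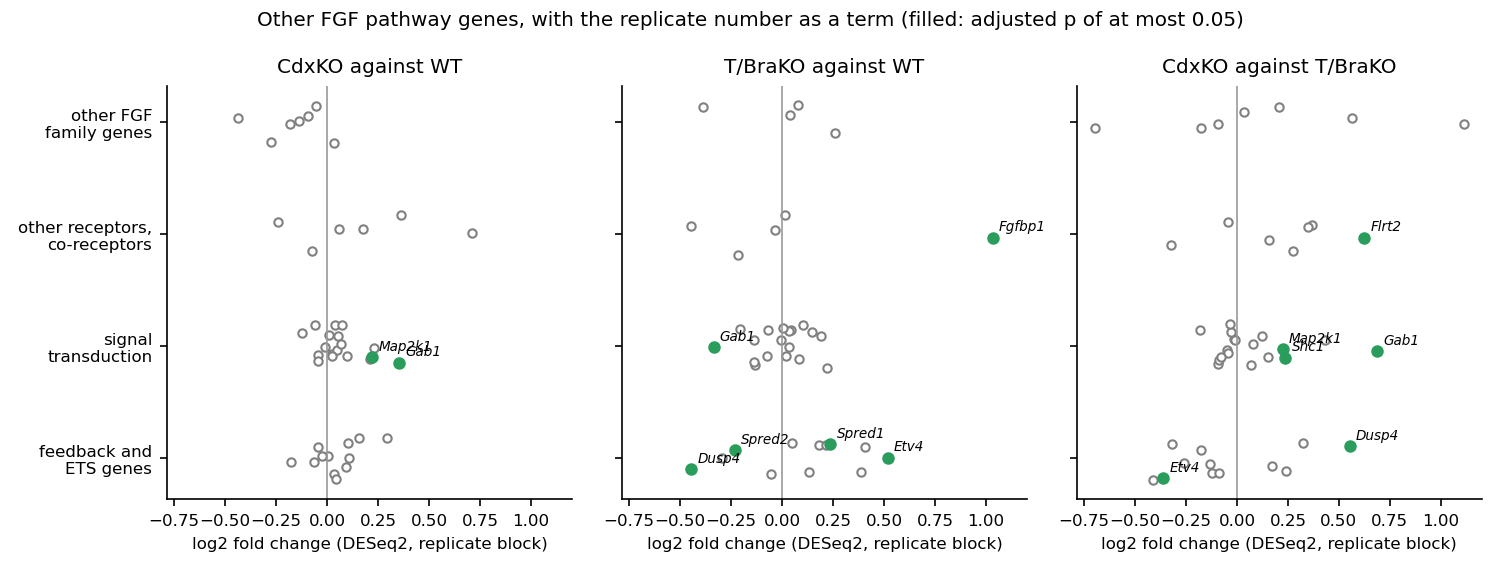
DESeq2 log2 fold changes with the replicate block (x axis) of the other FGF pathway genes that had an adjusted p, by list (y axis, points spread vertically for display), in the 3 comparisons, with 1 gene left out of the plot. Named filled points have an adjusted p of at most 0.05, and in T/BraKO against WT these are Fgfbp1, Gab1, Dusp4, Etv4, Spred1 and Spred2.

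Markers of other cells were read beside these results. The feeder fibroblast list, cells on which the stem cells were grown, summed to 38.7 to 68.9 TPM in WT, 47.0 to 85.0 in CdxKO and 36.3 to 57.9 in T/BraKO, and 2 of its 8 genes were called lower in T/BraKO against WT (DESeq2). In CdxKO against T/BraKO, 3 of them were called higher and 1 lower, and in CdxKO against WT 0 were called, with 3 at an unadjusted p of at most 0.05. With the block, 4 were called lower in T/BraKO against WT, 4 higher and 1 lower in CdxKO against T/BraKO, and 2 higher and 1 lower in CdxKO against WT. The 6 epiblast markers summed to 1317 to 2002 TPM in WT, 1499 to 2241 in CdxKO and 1635 to 2338 in T/BraKO, the 6 naive pluripotency markers to 18.01 to 43.4 TPM in any library, the 6 neural markers to 4.27 to 22.5 and the 6 endoderm markers to 3.97 to 23.7. Of these 4 lists, 0 genes were called in T/BraKO against WT or in CdxKO against T/BraKO, with 2 in each at an unadjusted p of at most 0.05, and 1, a naive pluripotency marker, was called in CdxKO against WT (DESeq2, without the block). With the block, 3 were called in CdxKO against WT, 5 in T/BraKO against WT and 5 in CdxKO against T/BraKO. Not every gene of these lists had an adjusted p in the blocked fits. Of all genes, the blocked fits called 5.31%, 9.68% and 14.6% in these comparisons, in that order. Fits without the block called 0.693%, 1.08% and 3.48%. The part of these cell types in the differences of the FGF genes was not tested.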

How the data were processed

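Poly(A) RNA of 9 cultures (3 for each genotype) was sequenced by the authors as strand-specific single-end reads. Per the study's methods, reads were trimmed with cutadapt 1.16 and quantified with STAR 2.5.2a and RSEM 1.3.0 on mm10 RefSeq genes, with strand. The deposited expected counts (gene-level RSEM estimates) were rounded to whole numbers for testing. The TPM values deposited by the authors are scaled to length within each library and were used for levels and shares, without a test. No column was left unmatched, and groups and replicate numbers came from the titles.

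Genes were tested with the DESeq2 1.42.0 Wald test (R 4.3.3) over 9 libraries with genotype as the term, on all genes, with Benjamini-Hochberg adjusted p of at most 0.05, as the study's methods state. Alternatives were TMM factors, a filter of 10 counts in 3 libraries, the replicate block, edgeR 4.0.16, fits to the 6 libraries compared, stricter thresholds (adjusted p of at most 0.01, or absolute log2 fold change above 1), and leaving out each library. Deviations from the genotype means of same-numbered libraries correlated at 0.532 to 0.814 in all 9 pairs over 12316 genes. The mean of different numbers was -0.340, a value that the centring on genotype means largely fixes. From the same-numbered values, the numbers, taken from the titles, were treated as pairing the samples. The labels call the replicates biological.

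Every member is named, as are the targeted genes, the defining markers and pathway genes called in a comparison, except 1 pathway gene that is counted but not reported here. Genes most like a called member (mean of at least 50 normalised counts) are the 3 with the highest correlation. Members and lists were chosen with earlier results of these data known. A floor of 3 counts is 0.0864 to 0.119 CPM, for counting error only. Coordinates are from GENCODE M21 (GRCm38, the assembly of mm10). In that annotation, Fgf15, Fgfr1 and Fgfr3 overlap genes on the other strand, which counting with strand separates, and Fgfr2 overlaps genes on both strands. Overlaps among the RefSeq genes used for counting were not checked. Scripts were tested on simulated counts.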

Additional observations from a re-analysis of the deposited data

Results flagged for a closer look

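Each of these was called in a direct DESeq2 test of CdxKO against T/BraKO, without or with the replicate block. Of all genes, 3.48% were called in this comparison without the block and 14.6% with it. Without the replicate block, the log2 difference was -0.96 for Fgf17 (DESeq2 adjusted p 4.58e-05) and 0.94 for Fgf8 (adjusted p 0.01003). With the block it was -0.97 for Fgf17, 0.91 for Fgf8, -1.26 for Fgf5 (adjusted p 0.0408) and 0.18 for Fgfr1 (adjusted p 0.0351). Of the 9 blocked fits that left out 1 library, 3 called Fgf5 and 2 called Fgfr1. EdgeR did not call Fgf8 without the block or Fgfr1 with it. Fgf17 was lower and Fgf8 higher in CdxKO at 3 of 3 replicate numbers.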

How the results depend on the processing

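TMM factors, the low-count filter and fits to the 6 libraries compared left the counts of called members as they were. Where the replicate numbers paired the samples (replicate block), the called members were 2, 4 and 4 in CdxKO against WT, T/BraKO against WT and CdxKO against T/BraKO, in place of 0, 2 and 2. The called pathway genes were 2, 7 and 6 in place of 0, 0 and 1. EdgeR with the block called 1, 5 and 3 members and 2, 8 and 10 pathway genes. EdgeR without it called 1 member in each of the last 2 comparisons. No share of all genes called by edgeR is given beside these counts. In CdxKO against WT, the 1 member called by edgeR with the block was Fgf3, whereas the 2 called by DESeq2 were Fgf4 and Fgf8. An absolute log2 fold change above 1 left 1 member in T/BraKO against WT and 0 in CdxKO against T/BraKO, with 0 pathway genes there, and an adjusted p of at most 0.01 left 1 member in the latter. TMM factors gave 2 pathway genes there, and the 6 libraries alone gave 1 in CdxKO against WT. Leaving out 1 library, without or with the block, gave 0 to 3, 1 to 5 and 1 to 4 members and 0 to 3, 0 to 8 and 1 to 7 pathway genes.

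Changes of sign were limited to members that DESeq2 did not call in that comparison. With the block, Fgfr3 turned to -0.0064 in T/BraKO against WT and Fgf3 to 0.069 in CdxKO against T/BraKO (0.037 with edgeR and the block), and edgeR gave 0.000172 for Fgf18 in the latter. Leaving out 1 library gave, in CdxKO against WT, -1.52 to 0.96 for Fgf5, -0.033 to 0.34 for Fgf18, -0.071 to 0.43 for Fgfr2 and -0.41 to 0.60 for Fgfr3. It gave, in T/BraKO against WT, -0.023 to 0.35 for Fgf18, -0.072 to 0.041 for Fgfr1, -0.13 to 0.34 for Fgfr2 and -0.21 to 0.31 for Fgfr3. In CdxKO against T/BraKO it gave -0.44 to 0.80 for Fgf3, -0.29 to 0.52 for Fgf4, -0.10 to 1.00 for Fgf15, -0.16 to 0.15 for Fgf18, -0.20 to 0.33 for Fgfr2 and -0.45 to 0.55 for Fgfr3.

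With counts not divided by length, the mean share of Fgf8 in the ligands was 42.0% in WT, against 37.0% in CdxKO and 16.0% in T/BraKO, in an unchanged order of genotypes. The Fgf4 share was higher than by TPM in each genotype, as was that of Fgf5 (20.8% for WT, 22.6% for CdxKO, 38.6% for T/BraKO). By counts Fgf5 exceeded Fgf8 in WT replicate 3 (37.8% against 30.7%) and CdxKO replicate 3 (42.1% against 27.3%). Fits with 1 library fewer have less precision, and the cause of lost calls was not tested. Fgf3 had the fewest reads of the members, with a mean of 19.3 expected counts.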
